A study of Homo sapiens with 3 samples.

Results

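The genes described here were 10 transcription factors and cofactors of the red cell lineage, GATA1, TAL1, LMO2, LDB1, KLF1, NFE2, ZFPM1, RUNX1, GFI1B and MYB, in a genome-wide knockout screen of K562 cells. They were named by symbol, with earlier results of these data known, and every sgRNA whose name carried one of the symbols was taken. They made up 10 of the 20381 genes and 98 of the 189398 gene-targeting sgRNAs with a read in any library. GATA1 and KLF1 each had 9 such sgRNAs and the other 8 genes had 10 each.

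K562 is a leukaemia line carrying the BCR-ABL fusion and able to make haemoglobin. The cells expressed Cas9, were infected with a pooled lentiviral sgRNA library at a multiplicity of 0.3, and were selected with puromycin. The screen asked which knockouts change MHC class I at the cell surface, and 3 libraries of genomic DNA were counted, 1 per group. The first was the HLA-B high sort, in which cells pulsed for 24 h with 1 ng/mL interferon-γ were enriched for high surface HLA-B in 2 rounds of sorting, on days 18 and 25. The second was the unsorted pool of the same screen, called here the high-screen pool. The third was the low-screen pool, the unsorted pool of a parallel screen whose sorts used 25 ng/mL interferon-γ and took place on days 7 and 15. The labels do not give the day on which either pool was taken, nor whether it was pulsed. All 3 groups share the K562 Cas9 line and the sgRNA library.

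GATA1 is the master factor of the red cell lineage. It binds DNA together with TAL1, while LMO2 and LDB1 bridge the bound factors and hold distant enhancers against promoters, as at the globin genes. ZFPM1 encodes FOG1, the partner that GATA1 needs at many targets, KLF1 and NFE2 switch on adult red cell genes, GFI1B represses genes of the stem and progenitor state, and RUNX1 and MYB act earlier, in stem cells and dividing progenitors.

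The libraries held between 22562241 and 98426251 reads matched to an sgRNA. Of the 200682 sgRNAs seen in any library, 97.7% were listed in the high-screen pool and 93.4% in the low-screen pool, but only 49.6% in the sort, so an sgRNA missing after sorting was the usual state. Safe-targeting sgRNAs direct Cas9 to genomic sites without annotated function. The level of a gene in a pool is given on the log2 scale. It is the median reads of its sgRNAs, with 1 read added, over the median of 6645 safe-targeting sgRNAs. A level of -1 is therefore 50 percent of the safe-targeting median. Non-targeting sgRNAs, which direct no cut, lay 0.82 above the safe-targeting median in the high-screen pool and 0.60 above it in the low-screen pool. No library from before growth was used here, so a low level through loss of cells and a low level through poor representation in the infected pool cannot be told apart. With 1 library per group no difference below has a replicate check. An sgRNA count holds no expression, so the identity of the line was not examined.

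All 10 genes lay below the safe-targeting median in the high-screen pool, as did 10181 of all 20381 genes, and 8 of 10 in the low-screen pool, as did 11330 of all genes. By summed reads RUNX1 was at 0.23 in the high-screen pool. Knockouts of TAL1, LDB1, NFE2 and MYB were below -1 in the high-screen pool, which is 4 of 10 genes against 10.4% of all genes. LDB1, at -1.07, was at -0.97 by the mean over sgRNAs, and NFE2, at -1.87, was at -0.87 by summed reads. Knockouts of GATA1, LDB1 and MYB were below -1 in the low-screen pool, which is 3 of 10 against 11.5% of all genes. MYB, at -1.24 there, was at -0.99 without its lowest sgRNA. LDB1 and MYB were the 2 genes low in both pools, a state found in 5.20% of all genes. The median level of the 10 genes was -0.63 in the high-screen pool and -0.49 in the low-screen pool, beside 0.00 and -0.08 over all genes. Against the non-targeting sgRNAs as the reference, all 10 genes were below -1 in the high-screen pool and 6 of 10 in the low-screen pool, as were 8019 and 6369 of all 20381 genes. By sgRNA, 71 of 98 were under the safe-targeting median in the high-screen pool, against 50.4% of gene-targeting sgRNAs, and 62 of 98 in the low-screen pool, against 52.7%.

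**Figure D1:**
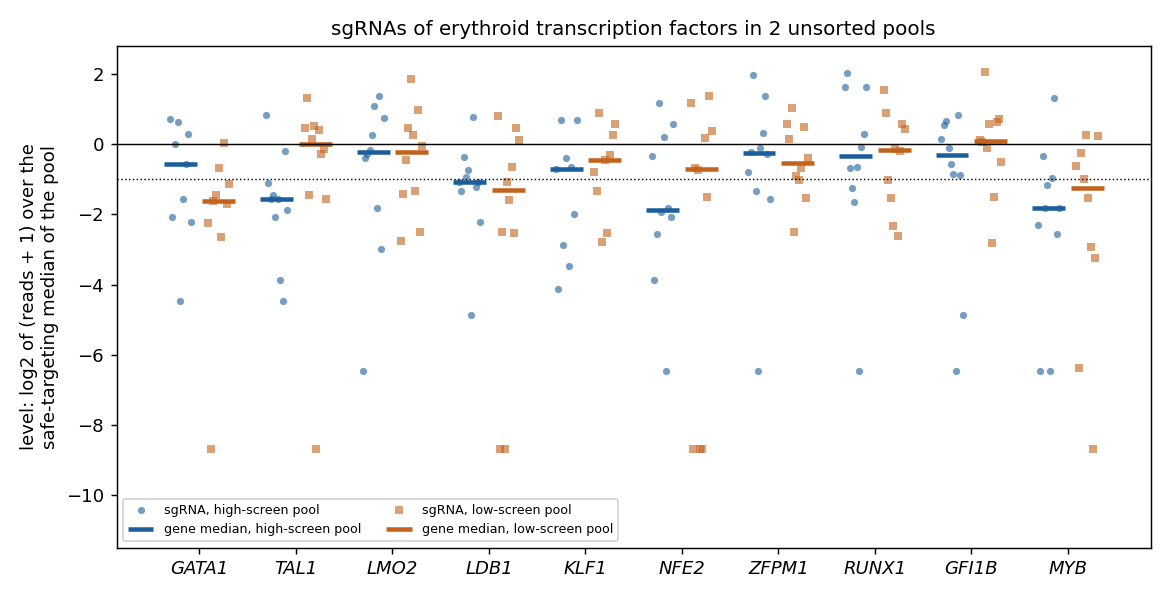
Level of each sgRNA (points) and each gene (bars, median over its sgRNAs) on a log2 scale against the safe-targeting median, in the high-screen pool (blue circles) and the low-screen pool (orange squares). The solid line is the safe-targeting median and the dotted line is -1; circles at -6.46 and squares at -8.69 are sgRNAs with no read in that pool. GATA1 sits at -0.55 and -1.61, TAL1 at -1.55 and 0.00, and only LDB1 and MYB lie below the dotted line in both pools.

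In the GATA1 and TAL1 complex, the levels of GATA1 and TAL1 differed between the pools, in opposite directions. Those of LMO2 and LDB1 were similar in both. GATA1 (GRCh37, chromosome X, 48644948 to 48652718, plus strand) had 601 reads over its 9 sgRNAs in the high-screen pool, 1426 in the low-screen pool and 1590 in the sort. These are 26.6, 14.5 and 46.4 reads per 1000000 matched reads (CPM), so the low-screen pool was the lowest of the 3. Its median sgRNA stood at 68.2% of the safe-targeting median in the high-screen pool and at 32.9% in the low-screen pool, where 8 of 9 sgRNAs were under that median. The lowest and highest sgRNAs of GATA1 in the low-screen pool had 0 and 419 reads, beside a safe-targeting median of 413.

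TAL1 (chromosome 1, 47681962 to 47697897, minus strand) showed the opposite order of the pools. It had 412 reads (18.3 CPM) in the high-screen pool, 4197 (42.6 CPM) in the low-screen pool and 37 (1.08 CPM) in the sort. Of its 10 sgRNAs, 9 were under the safe-targeting median in the high-screen pool and 5 in the low-screen pool. Its level was 34.1% of the safe-targeting median in the first pool and 100.1% in the second, and its sorted reads were fewer than in either pool.

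LMO2 (chromosome 11, 33880122 to 33913623, minus strand) was close to the safe-targeting median in both pools, at 85.8% and 85.3%. Its summed reads were 914 (40.5 CPM) in the high-screen pool, 4543 (46.2 CPM) in the low-screen pool and 644 (18.8 CPM) in the sort. Of its 10 sgRNAs, 8 had no sorted read, and sgRNA 8 and sgRNA 10 held the 644 reads. In the high-screen pool LMO2 lay closest to the safe-targeting median of all 10 genes.

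LDB1 (chromosome 10, 103866246 to 103880125, minus strand) was low in both pools, at 47.7% and 40.6% of the safe-targeting median. It had 486 reads (21.5 CPM) in the high-screen pool, 2471 (25.1 CPM) in the low-screen pool and 24 (0.70 CPM) in the sort. In the high-screen pool 9 of 10 sgRNAs were under the safe-targeting median and in the low-screen pool 7 of 10, of which 6 were under it in both. Of the 24 sorted reads 23 came from sgRNA 9, so LDB1 had the fewest sorted reads of the 10 genes.

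Among the activators of red cell genes and FOG1, NFE2 was the lowest. NFE2 (chromosome 12, 54685895 to 54694799, minus strand) had 580 reads (25.7 CPM) in the high-screen pool, 3642 (37.0 CPM) in the low-screen pool and 11936 (348.3 CPM) in the sort, the highest sorted sum of the 10 genes. Its level was -1.87 in the high-screen pool, the lowest of the 10, and -0.71 in the low-screen pool, where it was at -2.06 by the mean over sgRNAs. Here the 10 sgRNAs split widely: 3 of them, sgRNAs 2, 5 and 6, had no read in the low-screen pool, while sgRNA 7 had none in the high-screen pool and 466 in the low-screen pool.

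KLF1 (chromosome 19, 12995236 to 12998015, minus strand) stood at 61.4% and 73.7% of the safe-targeting median. It had 501 reads (22.2 CPM) in the high-screen pool, 3034 (30.8 CPM) in the low-screen pool and 459 (13.4 CPM) in the sort. In each pool its sgRNAs 4 and 10 were above the safe-targeting median, with 142 reads each in the high-screen pool. These 2 were also the only KLF1 sgRNAs with sorted reads, 381 and 78. Its sgRNA 9 was above that median in the low-screen pool alone, with 493 reads, and had no sorted read.

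ZFPM1 (chromosome 16, 88519688 to 88603439, plus strand) stood at 83.5% and 69.2% of the safe-targeting median, with 1016 reads (45.0 CPM), 3708 (37.7 CPM) and 481 (14.0 CPM) in the high-screen pool, the low-screen pool and the sort. The sorted library was the lowest of the 3. Neither KLF1 nor ZFPM1 reached -1 in a pool by the median, but by the mean over sgRNAs KLF1 was at -1.09 in the high-screen pool.

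Of the factors that act earlier or repress, MYB alone was low. MYB (chromosome 6, 135502446 to 135540311, plus strand), needed for the division of blood progenitors, stood at 28.4% of the safe-targeting median in the high-screen pool and 42.4% in the low-screen pool. It had 450 reads (19.9 CPM), 2040 (20.7 CPM) and 3080 (89.9 CPM) in the high-screen pool, the low-screen pool and the sort. In both pools together 7 of its 10 sgRNAs were under the safe-targeting median, and sgRNA 2 had 0, 4 and 0 reads in the 3 libraries.

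RUNX1 (chromosome 21, 36160098 to 37376965, minus strand) stood at 79.5% and 89.4% of the safe-targeting median, with 1260 reads (55.8 CPM), 4372 (44.4 CPM) and 467 (13.6 CPM). GFI1B (chromosome 9, 135819387 to 135867074, plus strand) stood at 80.1% and 106.5%, with 754 reads (33.4 CPM), 5416 (55.0 CPM) and 6035 (176.1 CPM). For RUNX1 the sort was the lowest library and for GFI1B the highest.

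The intervals of these sums cover counting error only. Exact Clopper-Pearson 95 percent intervals for GATA1 ran from 24.6 to 28.9 CPM in the high-screen pool and from 13.7 to 15.3 CPM in the low-screen pool. Those for TAL1 ran from 16.5 to 20.1 CPM in the first pool and began at 41.4 CPM in the second. The intervals of the pools thus did not overlap for either gene, nor for LMO2, LDB1, KLF1, NFE2, ZFPM1, RUNX1 or GFI1B. For MYB the intervals overlapped, at 18.1 to 21.9 CPM in the high-screen pool and 19.8 to 21.6 CPM in the low-screen pool. That overlap depended on sgRNA 8 of MYB, with 220 reads in the high-screen pool and 0 in the low-screen pool. Without it MYB stood at 10.2 CPM in the high-screen pool and 20.7 CPM in the low-screen pool. The share of all genes with intervals that do not overlap was not computed, so this is not a result about these genes. The spread between pools infected alike was not measured either.

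The direct comparison of the pools asks whether knockouts were held differently by the 2 unsorted populations. Each sgRNA with at least 10 reads in either pool entered, 96 of the 98, and the log2 ratio of high-screen to low-screen pool was taken after scaling both libraries to their mean depth. TAL1 was the 1 gene with a median below -1, at -1.11, beside 5.00% of all genes. GATA1 was the 1 gene with a median above 1, at 1.48, beside 4.69% of all genes. The medians of the other 8 genes lay between -0.98 for MYB and 0.77 for ZFPM1, with GFI1B at -0.70, NFE2 at -0.47, LMO2 at -0.30, KLF1 at -0.29, RUNX1 at 0.08 and LDB1 at 0.69. Safe-targeting sgRNAs had a median of -0.16, with quartiles of -1.01 and 0.70, and centred on that median TAL1 was at -0.95. Without its lowest sgRNA TAL1 was at -0.47, and GATA1 was at 0.98 by the mean over sgRNAs and at 0.88 by summed reads, so neither stayed past the fold under every setting.

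The redundant siRNA activity (RSA) score asks whether the sgRNAs of a gene crowd at one end of the ranking of all sgRNAs, and a gene was called at a p under 0.001 with at least 4 sgRNAs at or beyond its best rank. Its p measures agreement among sgRNAs within these libraries and not between cultures. None of the 10 genes was called in either direction, beside 0.831% of all genes called as enriched in the high-screen pool and 0.733% called as depleted from it. TAL1 was nearest to a call for depletion, with an RSA p of 0.0025 and 4 sgRNAs at its best rank. KLF1 also had a p of 0.0025, but its best rank took in all 9 of its sgRNAs. Only 3 of these were below -1, and the highest was at 0.01. For enrichment MYB had a p of 0.0046 at its single highest sgRNA, and GATA1 had a p of 0.0057 with 5 sgRNAs. That MYB sgRNA, sgRNA 8, had 220 reads in the high-screen pool and 0 in the low-screen pool, so it entered only through the first. Without the most extreme sgRNA of each gene the RSA p for enrichment was 0.36 for MYB and 0.0023 for GATA1.

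The sgRNAs of 1 gene did not move together. TAL1 had 5 sgRNAs below -1 and 1 above 1, namely sgRNA 6, with 29 reads in the high-screen pool and 0 in the low-screen pool. GATA1 had 5 above 1 and 2 below -1, of which sgRNA 5 had 3 reads in the high-screen pool and 258 in the low-screen pool. LDB1 had 5 above 1 and 4 below -1, so that its median of 0.69 lay between 2 separate sets of sgRNAs. The LDB1 ratio was -0.72 with at least 50 reads, -0.22 by summed reads and 1.19 without its lowest sgRNA. RUNX1 and KLF1 were the most even, with quartiles of -0.31 and 0.44 for RUNX1 and of -1.16 and -0.08 for KLF1.

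Across the 10 genes the quartiles of the sgRNA ratio were -1.66 and 0.84, against -0.94 and 0.88 for all gene-targeting sgRNAs. Depth moved with this: the sgRNAs of the 10 genes had a median of 47.5 reads in the high-screen pool and 264.5 in the low-screen pool, against 86 and 386 for all gene-targeting sgRNAs. The part of depth in the spread was not tested. In all, 8 of the 98 sgRNAs were listed in the high-screen pool and missing from the low-screen pool, and 7 the other way round.

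**Figure D2:**
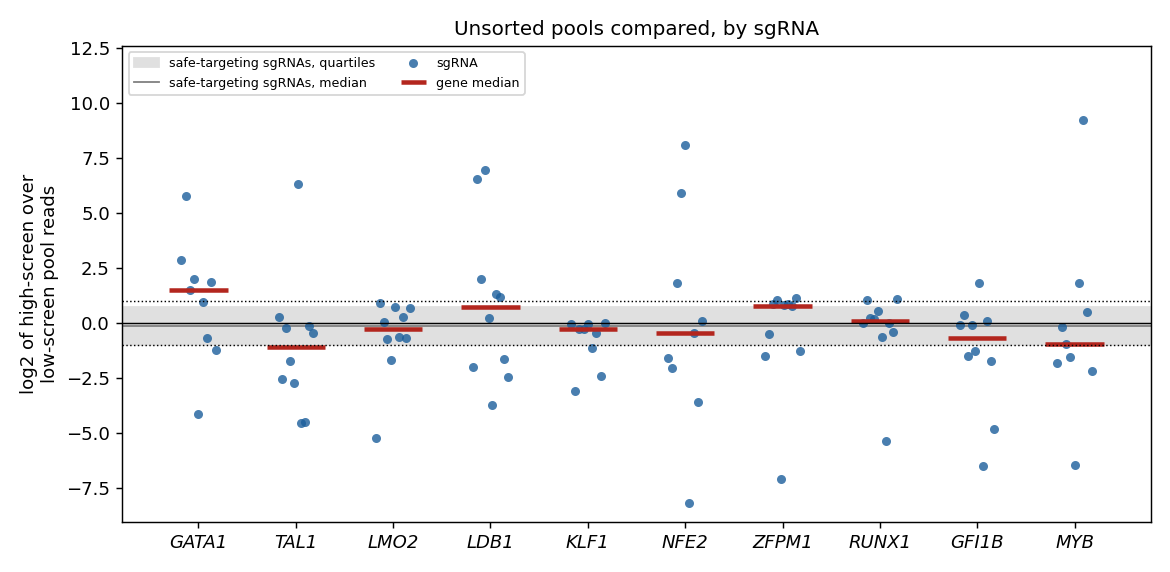
log2 ratio of high-screen to low-screen pool reads for each sgRNA with at least 10 reads in either pool (points), with the gene median (red bar) and the safe-targeting quartiles (grey band). Dotted lines mark -1 and 1. The bar of GATA1 lies at 1.48 and that of TAL1 at -1.11, while the points of most genes fall on both sides of 0.

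The sort asks which knockouts raise surface HLA-B at the low dose of interferon-γ. For scale, the summed reads of EZH2, a repressor that methylates histone H3, went from 25.6 CPM in the high-screen pool to 2062 CPM in the sort, with 7 of 9 sgRNAs above a log2 ratio of 1. MEN1, which encodes menin, went from 34.7 to 3345 CPM, and SOCS1, an inhibitor of interferon signalling, from 62.9 to 885.9 CPM.

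None of the 10 genes was called in the sort. Against the high-screen pool 0.532% of all genes were called as enriched and 0.418% as depleted, and against the low-screen pool 0.645% and 0.586%. Of the 83 sgRNAs that reached 10 reads in the high-screen pool, 11 had a log2 ratio above 1, which is 13.3%, beside 12.6% of all gene-targeting sgRNAs and 11.7% of safe-targeting ones. No sorted read was seen for 46 of the 83, or 55.4%, beside 48.5% of gene-targeting sgRNAs. These shares carry no test, since sgRNAs of 1 gene share a target, and the sgRNAs of the 10 genes had fewer reads before sorting, as given above. The part of depth in them was not tested.

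NFE2 came closest to a call. Its RSA p for enrichment over the high-screen pool was 0.00019, rank 45 of 20314 genes, but only 3 sgRNAs stood at its best rank where 4 were needed. These were sgRNA 4, with 197 reads in the high-screen pool, 247 in the low-screen pool and 10893 in the sort, sgRNA 8, with 24, 146 and 599, and sgRNA 3, with 14, 256 and 254. Their log2 ratios to the high-screen pool were 5.18, 3.99 and 3.51, and the other 5 tested sgRNAs lay between -6.12 and -1.53.

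A single sgRNA held most of the sorted reads of NFE2, although 3 sgRNAs stood at its best rank. sgRNA 4 supplied 91.3% of the sorted reads of the gene, and without it the summed reads were 17.0 CPM in the high-screen pool and 30.4 CPM in the sort. Its sgRNA 2 had 5, 0 and 108 reads in the high-screen pool, the low-screen pool and the sort, and was left out by the minimum count. With no minimum count NFE2 was called, at a p of 1.4e-05. Against the low-screen pool the RSA p of NFE2 was 0.0023, at its single highest sgRNA.

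GFI1B had the highest median of the 10 genes in the sort, at 0.18, and was the only one with a median above 0, beside 2.81% of all genes. Against the low-screen pool its median was -0.38. Of its 10 sgRNAs 7 had sorted reads, and of the 8 tested 3 were above 1: sgRNA 8 at 3.99, sgRNA 1 at 2.71 and sgRNA 4 at 1.42. sgRNA 8 went from 156 reads in the high-screen pool to 3777 in the sort. Its summed reads were 26.5 CPM in the high-screen pool and 65.9 CPM in the sort once that sgRNA was left out. The RSA p was 0.0073 against the high-screen pool and 0.018 against the low-screen pool.

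MYB also had 3 of 8 tested sgRNAs above 1. sgRNA 1 had 17, 268 and 303 reads in the high-screen pool, the low-screen pool and the sort, sgRNA 5 had 38, 493 and 541, and sgRNA 8 had 220, 0 and 2066. The log2 ratios to the high-screen pool were 3.49, 3.20 and 2.62. sgRNA 8 of MYB was thus abundant in both libraries of the high screen and missing from the other pool. A further 4 tested sgRNAs had no sorted read. The RSA p was 0.0025 against the high-screen pool and 0.14 against the low-screen pool.

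In the sort, of the 39 sgRNAs of GATA1, TAL1, LMO2 and LDB1, 10 had a sorted read, against 15 of the 29 of KLF1, NFE2 and ZFPM1 and 16 of the 30 of RUNX1, GFI1B and MYB. Over all gene-targeting sgRNAs the share was 49.2%. These groupings were made after the values were seen and carry no test. GATA1 kept 46.4 CPM in the sort, but sgRNA 1 held 93.3% of it, with 143 reads in the high-screen pool, 86 in the low-screen pool and 1483 in the sort. Without that sgRNA GATA1 stood at 3.12 CPM in the sort against 20.3 CPM in the high-screen pool.

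No TAL1 or LDB1 sgRNA was above 1 in the sort, and their highest log2 ratios were -2.76 and -1.39. The RSA p for depletion was 0.016 for TAL1 and 0.021 for LDB1 against the high-screen pool, and 0.013 and 0.016 against the low-screen pool. Their medians of -5.23 and -5.72 lay inside the quartiles of safe-targeting sgRNAs, which were -6.50 and -0.55. LMO2, KLF1 and RUNX1 also had no tested sgRNA above 1, and ZFPM1 had 1, sgRNA 9, with 71 reads in the high-screen pool, 142 in the low-screen pool and 333 in the sort. RUNX1 sgRNA 7, under the minimum count, had 0, 66 and 99 reads in the same order. With no minimum count the RSA p of RUNX1 for enrichment went from 0.41 to 0.012. That sgRNA then entered only through its sorted reads, so the lower p is not evidence of enrichment. Also under the minimum were GATA1 sgRNA 5, with 3, 258 and 106 reads, and GFI1B sgRNA 10, with 2, 291 and 445.

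**Figure D3:**
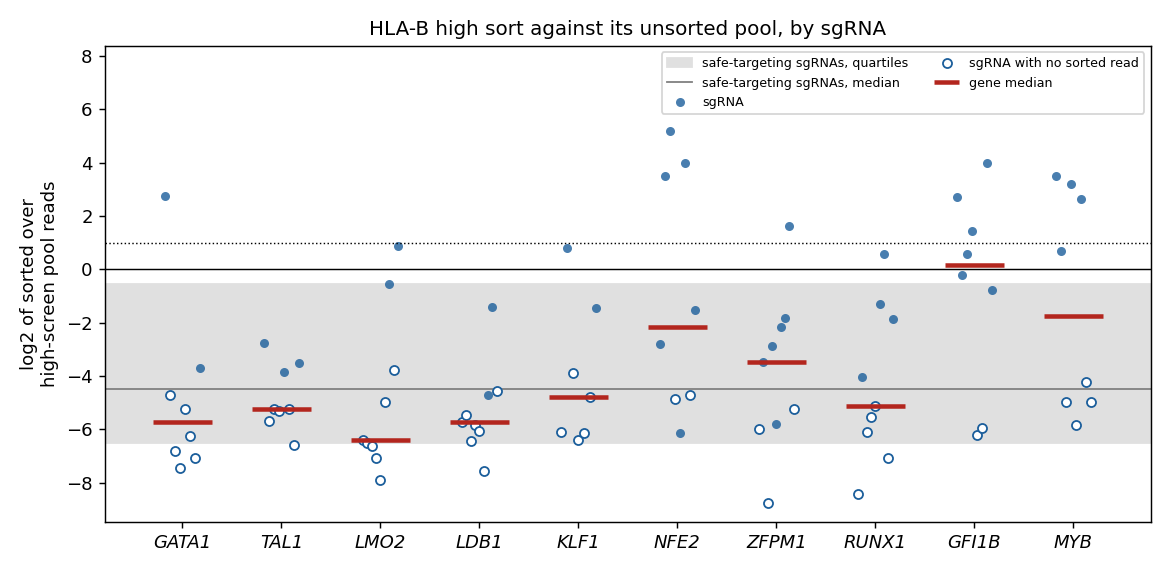
log2 ratio of sorted to high-screen pool reads for each sgRNA with at least 10 reads in the control (points, open where no sorted read was seen), with the gene median (red bar) and the safe-targeting median and quartiles (grey line and band). The dotted line marks 1. NFE2, GFI1B and MYB each have 3 points above it, and every TAL1 and LDB1 point lies below 0.

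The related genes of 6 lists give the setting for these levels. Among 20 other haematopoietic transcription factors the median level was 0.23 in the high-screen pool and 0.13 in the low-screen pool, and 2 genes were below -1 in each pool. LMO4, a relative of LMO2, was at -1.14 and CBFB, the partner of RUNX1, at -1.02 in the high-screen pool. In the low-screen pool the 2 were BACH1, a repressor that competes with NFE2 for its sites, at -1.66, and LYL1, a relative of TAL1, at -1.01. CBFB also had the lowest ratio between the pools in this list, at -1.54. BACH1 had the highest, at 1.01, and was called by RSA as enriched in the high-screen pool with a p of 0.00067. GATA2, the relative of GATA1 in stem cells, was at 0.62 and 0.11.

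Of 16 cofactors of the factors, 3 were below -1 in each pool. SSBP3, which protects LDB1 from degradation, was at -1.73 in the high-screen pool and -1.33 in the low-screen pool. CBFA2T3, a corepressor of the TAL1 complex, was at -1.08 and -1.96. Both genes were low in both pools as LDB1 was, a state found in 5.20% of all genes. SSBP2, at -0.73 and 0.09, and SSBP4, at -0.22 and -0.55, were below -1 in neither pool. RCOR1, a partner of the demethylase KDM1A, was at -1.25 in the high-screen pool and -0.68 in the low-screen pool, and CBFA2T2 was at -0.90 and -1.20. EP300, a histone acetyltransferase, had the 1 pool ratio past the fold, at -1.01, and GSE1, at 1.04 and 1.25, was above 1 in both pools. KDM1A itself was at 0.23 and 0.28. No cofactor was called by RSA.

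The products of the pathway were mostly near the safe-targeting sgRNAs. In haem synthesis and iron 1 of 15 genes was below -1 in the high-screen pool, TFRC, the transferrin receptor, at -1.25, and none in the low-screen pool, where TFRC was at -0.14. UROD, an enzyme of haem synthesis, had a pool ratio of -1.01. Of 16 globin and red cell membrane genes found, of 18 listed, 3 were below -1 in the high-screen pool, HBG2 at -3.00, HBG1 at -2.33 and GYPB at -2.33. In the low-screen pool HBG2 was at -2.37 and HBG1 at -1.18, while GYPB was at -0.45. These 3 genes have near-identical copies, and the study removed reads that aligned to more than 1 sgRNA, so their levels are uncertain. HBG1 and GYPB had 6 sgRNAs listed each and HBG2 had 7. SLC4A1, the anion exchanger of the red cell membrane, was at -0.83 and 0.97 in the pools, with a ratio of -1.92 between them, and was called as depleted from the high-screen pool with a p of 0.00020. AHSP, the chaperone of α-globin, had a pool ratio of -1.02 and GYPB one of -2.55.

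Growth signalling genes and pan-essential genes made up the remaining lists. Of 8 growth signalling genes, BCR was at -1.46 and -3.46 and STAT5B at -2.07 and -2.41, and ABL1 was at -0.36 in the high-screen pool and -1.47 in the low-screen pool. ABL1, with a pool ratio of 2.49, was called as enriched in the high-screen pool with a p of 5.5e-05, and BCR had a ratio of 1.22 with no call. STAT5B had a ratio of 0.24. The 12 pan-essential genes, of which PSMA1 carried 2 identifiers, gave 13 entries with a median of -0.90 in the high-screen pool and -1.62 in the low-screen pool. Of these 13 entries 4 and 9 were below -1. The lowest were PSMA1, over 3 sgRNAs, at -2.29 and CDK1 at -1.82 in the high-screen pool. In the low-screen pool the lowest was PSMA1, over 2 sgRNAs, at -3.22. In the pool comparison 3 were above 1, the highest being PSMA1, over 2 sgRNAs, at 3.13 and RRM1, a subunit of ribonucleotide reductase, at 1.28. By the median over sgRNAs, knockouts of NFE2, MYB, TAL1 and LDB1 were thus lower than the median essential gene in the high-screen pool. By summed reads NFE2 was at -0.87 there, and the ranking against essential genes was not repeated with that summary. In the low-screen pool GATA1, the lowest of the 10, was level with the median essential gene at -1.61. RPL3, a ribosomal protein, was the 1 list gene called in the sort, as depleted against the low-screen pool.

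**Figure D4:**
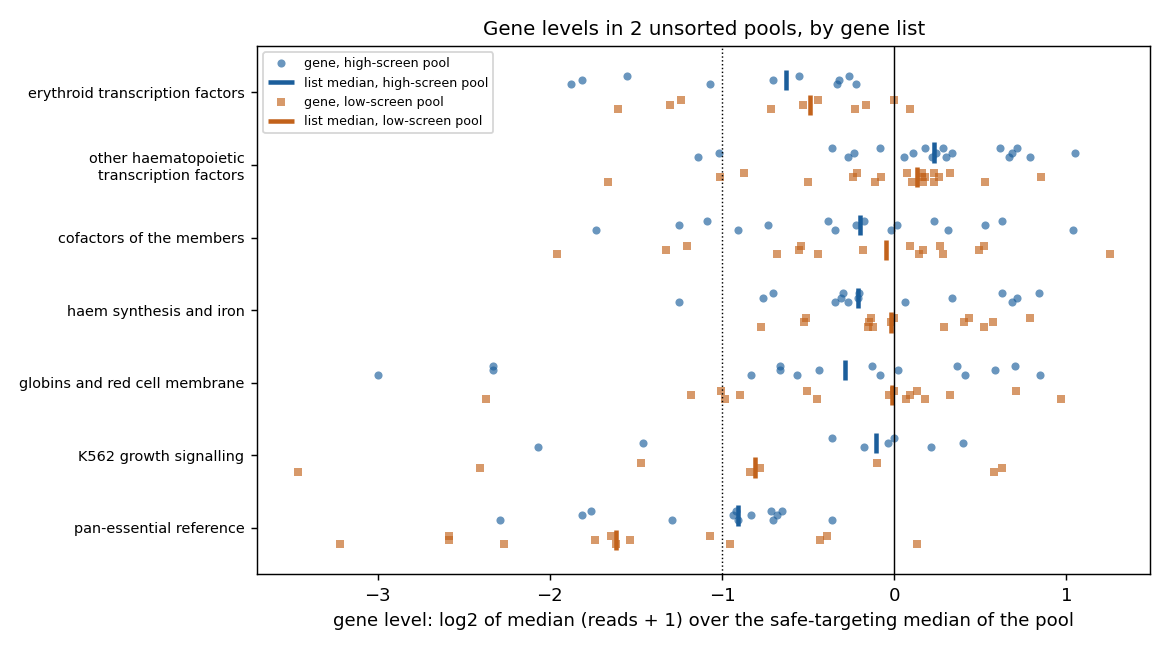
Level of each gene (points) in the high-screen pool (blue circles) and the low-screen pool (orange squares), with the median of each list (bars), on a log2 scale against the safe-targeting median. The 10 erythroid factors have medians of -0.63 and -0.49, between those of the other haematopoietic factors at 0.23 and 0.13 and the pan-essential genes at -0.90 and -1.62.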

How the data were processed

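Genomic DNA of K562 Cas9 cells carrying a genome-wide sgRNA library was counted in 3 libraries, 1 per group. The authors deposited raw read counts per sgRNA. Reads were trimmed, mapped to the sgRNA library with Bowtie2 and discarded where they aligned more than once. Tool versions and a genome build are not given in the sources used here. Unmatched reads, 12.1 to 21.9% of a library, were left out of totals.

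Members were matched by symbol. Levels and ratios used a pseudocount of 1 read, and for ratios both libraries were first scaled to the mean of their matched reads. sgRNAs needed 10 reads in the control, or in either pool for the pool comparison. RSA was computed in Python 3.11.15 with numpy 2.4.6 and scipy 1.17.1, was tested on simulated data, and each control sgRNA was ranked on its own. No test across replicates was possible, and RSA p-values were not adjusted. Intervals of summed reads are exact binomial ones and, since reads carry no molecular identifiers, cover counting error only. Gene positions are from GENCODE release 44 on GRCh37.

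The 10 members and the lists were chosen with earlier results of these data known. The text names all 10 members, up to 4 lowest and 2 highest genes of a list past a log2 fold of 1, genes called by RSA, and EZH2, MEN1 and SOCS1 for scale. GATA2, KDM1A, SSBP2 and SSBP4 fall outside this rule and were named for their role after their values were seen. A listed gene is not named here. Alternatives covered the summary over sgRNAs, pseudocount, reference, minimum count, depth and call rule. sgRNA sequences and cut sites were not used here.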

Additional observations from a re-analysis of the deposited data

How the results depend on the processing

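No paired analysis was possible because each group had 1 library, and for the same reason no replicate could be left out. The counts of genes low in a pool, 4 and 3, became 10 and 6 against non-targeting sgRNAs. The count of genes below -1 in the pool comparison, 1, became 2 by the mean over sgRNAs (TAL1 and GFI1B), 2 with no minimum count (TAL1 and MYB), 3 with at least 50 reads (TAL1, NFE2 and MYB), and 0 without the lowest sgRNA or centred on safe-targeting sgRNAs. RSA called 1 of the 10 genes, NFE2, as enriched in the sort with no minimum count, and none under the other settings. The count of sgRNAs above 1 in the sort, 11, became 7 with at least 50 reads, where 48 were tested. The 10 genes gave 64 other counts within 1.5 times of those reported. None of the 10 genes was called in the main setting, so these include RSA counts that stayed at none. For the same reason no call could change sign.

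Over all genes, 2122 low in the high-screen pool became 1360 by summed reads, 1388 without the lowest sgRNA and 8019 against non-targeting sgRNAs, and 2336 low in the low-screen pool became 4045 by the mean and 6369 against non-targeting sgRNAs. The 1017 below -1 in the pool comparison became 376 by summed reads, 517 without the lowest sgRNA and 632 when centred. RSA calls rose without the most extreme sgRNA of each gene, from 149 to 253 (depleted, pools), 108 to 192 and 85 to 163 (enriched and depleted, sort against the high-screen pool), and 131 to 198 and 119 to 198 (against the low-screen pool). Requiring 4 sgRNAs beyond a fold gave 144 in place of 85. A best rank at a ratio beyond 0, a rule chosen after seeing the data, gave 59 in place of 108 and 70 in place of 131. Adding the pseudocount before scaling, also chosen then, changed no count by over 1.5 times.

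Between 83 and 96 of 98 sgRNAs were tested, and 1 read in the sort is 0.0292 CPM. At this depth an sgRNA missing from the sort sets only an upper limit on its share.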
